A study of Homo sapiens with 8 samples.

Results

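The m1A peaks that lie in 7 known tRNA gene clusters of the human genome were examined in the bladder cancer line 5637. The clusters were fixed by position on hg38, as chromosome 6 from 26.2 to 28.9 Mb (chr6 p22), chromosome 1 from 145 to 149.8 Mb (chr1 q21) and from 161.4 to 161.7 Mb (chr1 q23), chromosome 14 from 20.6 to 21.1 Mb (chr14 q11), chromosome 16 from 3.1 to 3.3 Mb (chr16 p13), chromosome 17 from 8.1 to 8.3 Mb (chr17 p13) and chromosome 5 from 180.9 to 181.3 Mb (chr5 q35). A peak belonged to a cluster when it lay wholly inside these bounds. The rule uses position only, although the clusters were picked with earlier results of these data known. This gave 231 of 28510 peaks. Peaks of different samples that overlapped by at least 1 base were joined into regions, which gave 101 cluster regions of 16864 regions in all. RefSeq places 251 of its 443 nuclear tRNA genes inside the clusters.

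The knockdown group carried a stable knockdown of TRMT61A, and the control group was 5637 cells with the genotype label WT. Each group had 2 samples, and each sample gave an m1A immunoprecipitated (IP) library and an input library from rRNA-depleted total RNA. The labels do not say whether the knockdown cells were 1 clone or whether replicates were separate cultures. The spread behind every p-value is that between these samples alone and may be technical.

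N1-methyladenosine (m1A) is a methyl group on the base-pairing face of adenosine. TRMT61A is the catalytic subunit of an enzyme that, together with TRMT6, places m1A on an adenosine in the T-loop of cytosolic tRNAs, the best known site of this mark. tRNA genes are short, are transcribed by RNA polymerase III from promoter elements inside the gene, and sit in dense groups among protein-coding genes and long noncoding RNA (lncRNA) genes. The primary transcript runs past both ends of the mature tRNA, and its leader and trailer are cut off by RNase P and by the tRNA 3′ endonuclease.

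The peak lists name a host mRNA or lncRNA for each peak and not a tRNA, so the tRNA genes beside the regions are shown first. RefSeq windows around gene starts (GRCh38.p14) held 4 whole tRNA genes that lie beside or under a cluster region, printed 5′ to 3′ on the strand that holds the T-loop motif. Capitals mark the motif GTTCNANNC, whose sixth letter is the T-loop adenosine, so that the distance from this adenosine to each peak can be read. The data do not show whether it was methylated at these genes. A peak bound need not mark where the signal ends. Of the cluster peaks in the lncRNA lists, 53.7% had an edge exactly at an end of their host transcript.

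TRP-TGG3-2, chr14:20684016-20684087, plus strand, beside the region in RNASE4: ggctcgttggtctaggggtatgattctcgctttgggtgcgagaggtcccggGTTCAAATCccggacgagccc
TRP-TGG3-5, chr16:3188094-3188165, plus strand, beside a region in AJ003147.2: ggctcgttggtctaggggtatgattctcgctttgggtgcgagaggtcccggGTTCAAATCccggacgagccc
TRI-TAT2-2, chr6:27020346-27020439, plus strand, beside the region in LINC00240: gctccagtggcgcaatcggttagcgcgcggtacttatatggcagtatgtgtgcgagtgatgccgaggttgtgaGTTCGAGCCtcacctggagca
TRT-TGT6-1, chr5:181191687-181191758, minus strand, under the region in LINC01962: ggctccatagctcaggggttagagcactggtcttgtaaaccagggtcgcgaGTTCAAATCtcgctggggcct

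The T-loop adenosine stands at base 57 of the 72-base genes and at base 79 of the 94-base TRI-TAT2-2, counted from 1 at the 5′ end of the gene. It lies outside the listed region in each of the 4 cases, at 28 bases from the region in RNASE4, 62 bases from that in AJ003147.2, 29 bases from that in LINC00240 and 40 bases from that in LINC01962. These 4 are the cases whose sequence could be read here and do not stand for the rest, since 7 other cluster regions hold their nearest tRNA gene whole, and did so in every list. The first 3 regions lie downstream of the tRNA, and the region in LINC01962 covers the 5′ end of TRT-TGT6-1 and the sequence upstream of it. Both strands of all 34935 distinct RefSeq start windows of 300 bases were searched, and 7.49% held GTTCNANNC. The proline genes TRP-TGG3-2 and TRP-TGG3-5 have the same 72 letters. How the authors placed reads that match several copies of a tRNA is not given in the sources used here, so a value beside one of such copies is uncertain.

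The runs from these proline genes into the regions downstream of them are shown on the plus strand, because the genes are identical while the flanks and the folds beside them are not. The first 72 letters are the tRNA gene. The listed region begins 13 bases past the gene in RNASE4 and 47 bases past it in AJ003147.2.
TRP-TGG3-2 into RNASE4, chr14:20684016-20684226: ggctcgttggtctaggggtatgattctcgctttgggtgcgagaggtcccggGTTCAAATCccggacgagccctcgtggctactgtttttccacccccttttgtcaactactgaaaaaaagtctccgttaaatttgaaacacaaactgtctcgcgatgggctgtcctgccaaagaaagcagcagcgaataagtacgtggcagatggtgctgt
TRP-TGG3-5 into AJ003147.2, chr16:3188094-3188253: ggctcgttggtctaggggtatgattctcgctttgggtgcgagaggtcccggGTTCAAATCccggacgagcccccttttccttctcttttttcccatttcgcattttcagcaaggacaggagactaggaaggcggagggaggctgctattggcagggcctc

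The input libraries held 30046283 to 42177927 counts in mRNA genes and 1727826 to 2304288 counts in lncRNA transcripts. Of 13 epithelial or urothelial markers 11 were tested, with a summed level of 4920 and 5218 CPM (counts scaled to library size) in knockdown inputs and 4667 and 5388 CPM in control inputs, while UPK2 and UPK3A were near 0. The summed level of 5 immune markers was 0.624 to 1.5 CPM over the 4 inputs, that of 4 endothelial markers 1.5 to 2.62 CPM, and that of 5 fibroblast markers 29.5 to 45.0 CPM, most of it COL1A1. TRMT61A had 13.4 and 6.71 CPM in knockdown inputs, against 19.8 and 14.7 CPM in control inputs. Its 2 groups did not overlap, but with a log2 fold change of -0.78 (SE 0.29) it missed the threshold in the edgeR quasi-likelihood fit over all mRNA genes (Benjamini-Hochberg adjusted p = 1.00, unadjusted p = 0.0278). TRMT6, its partner subunit, had 65.5 and 57.2 CPM in knockdown inputs, against 63.4 and 56.4 CPM in control inputs.

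Cluster regions beside tRNA genes had higher folds at the median than those farther away, with an overlap between the sets. Of the 101 regions, 11 overlapped a tRNA gene and 28 lay within 1 kb of one, a limit chosen after the distances were seen, while over all regions of the 8 lists 0.148% overlapped and 0.468% lay within 1 kb. Of the 28, 10 lay 1 to 100 bases from the gene, 6 lay 101 to 300 bases away, and the last, in TRIM41, lay 823 bases away. Distances are those of regions as joined over the samples. The next regions outward were in BORCS6, at 1220 bases, and in ABT1, at 1990 bases. The 28 regions had a median fold enrichment of IP over input of 255, where each region was represented by the median of its highest fold in each sample. The other 73 regions had a median of 5.69, close to the 5.77 of the 16712 regions that lay outside the clusters and farther than 1 kb from a tRNA gene. A median fold over 1000 was reached by 13 cluster regions, all within 1 kb of a tRNA gene, against 0.184% of all regions. The highest median fold among the 73 farther regions was 37.3, and 8 of the 28 regions beside tRNA genes, with median folds of 12.0 to 31.0, lay below it. Fold is the authors' value per peak and was used to describe and rank peaks, with no test between groups.

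**Figure D1:**
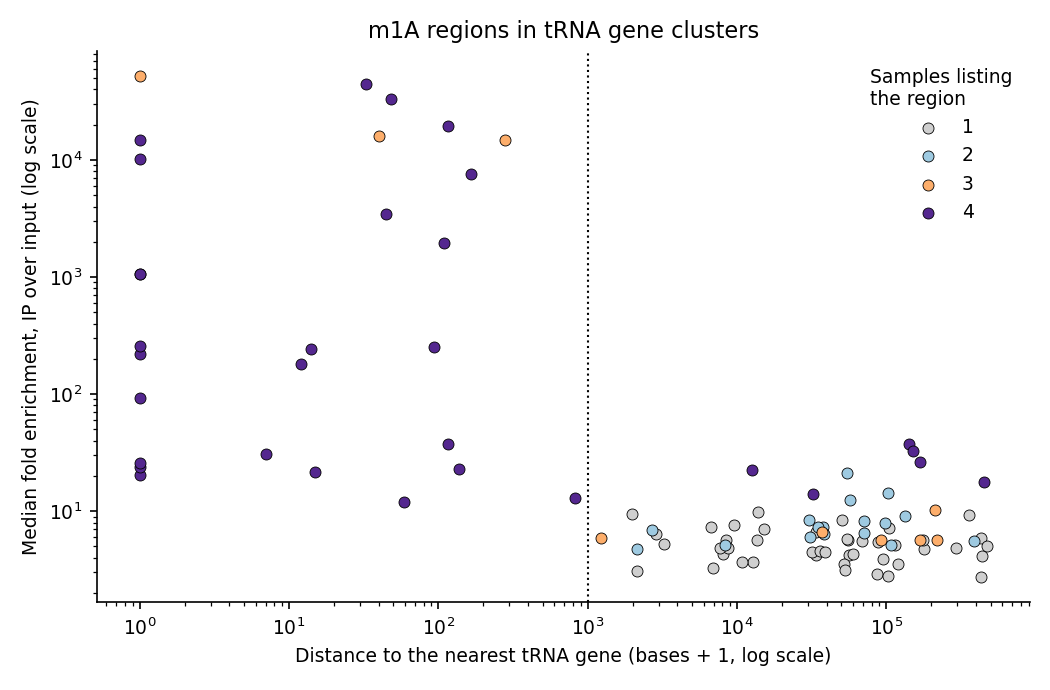
Each point is 1 of the 101 cluster regions. The x axis is the distance to the nearest tRNA gene in bases plus 1, the y axis the median fold enrichment of IP over input over the samples that list the region, both on log scales, and the colour gives the number of samples listing it. All 13 regions with a median fold over 1000 stand left of the dotted line at 1 kb, and no region to its right exceeds 37.3.

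Regions beside tRNA genes were also those that recurred. Of the 101 cluster regions 31 were listed in all 4 samples, 9 in 3, 17 in 2 and 44 in 1, while over all regions 10.5% were listed in all 4 samples and 62.2% in 1. Of the 28 regions within 1 kb of a tRNA gene, 25 (89.3%) were listed in all 4 samples and the other 3 in 3 samples. The 25 include the TRIM41 region 823 bases away, whose peak in knockdown sample 2 lay farther than 1 kb from the gene. Of the 73 farther regions, 6 (8.22%) were listed in all 4 samples and 44 (60.3%) in 1. The clusters were not alone in this: of 51 regions that lay within 1 kb of a tRNA gene elsewhere in the genome, 30 were listed in all 4 samples, and their median fold was 583. Regions elsewhere included 8 that were listed in 1 sample only, where the clusters had 0.

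**Figure D2:**
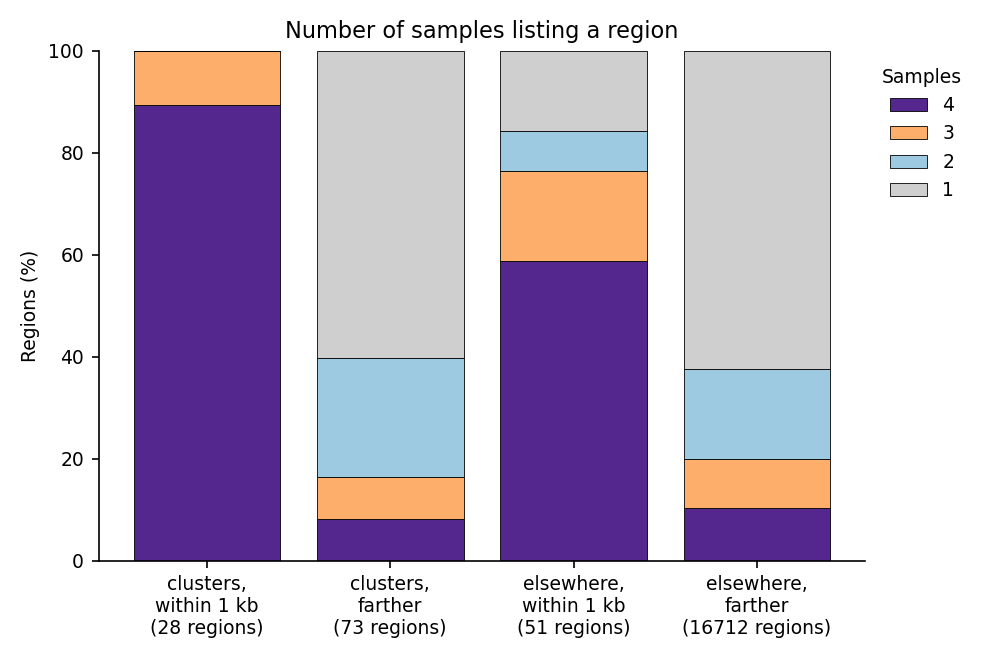
Stacked bars give the share of regions, in percent, that were listed in 1, 2, 3 or 4 of the 4 samples, for cluster regions within 1 kb of a tRNA gene, cluster regions farther away, and the same classes elsewhere in the genome. Near tRNA genes 89.3% of cluster regions were in all 4 samples, against 8.22% of cluster regions farther away.

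Within each sample's own list, cluster peaks ranked high by fold. The median cluster peak stood at percentile 76.3 and 91.7 of the knockdown lists and at percentile 87.9 and 93.9 of the control lists. Of the 20 peaks of highest fold, 9 and 10 lay in the clusters in the knockdown lists and 10 and 10 in the control lists. Of the 100 peaks of highest fold, 18 lay in the clusters in every list. Cluster peaks made up only 0.799% and 1.05% of the peaks in the knockdown lists and 0.689% and 0.815% of those in the control lists.

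The chr5 q35 cluster, with 17 tRNA genes and 8 regions, held the region of highest fold among those listed in all 4 samples. This region, chr5:181222499-181222652, was listed under TRIM41, which encodes an E3 ubiquitin ligase, and lay 32 bases from the valine tRNA gene TRV-CAC1-5. Its fold was 51113 and 52589 in the knockdown samples, against 37391 and 19679 in the control samples, so both knockdown values were the higher. Joined over the samples, the region also spans MIR4638, on the minus strand at chr5:181222566-181222633. The peaks of knockdown sample 2 and control sample 1 end inside this hairpin, at bases 181222621 and 181222626. The hairpin is the only stretch of the region whose RefSeq sequence was at hand. It is shown with the mature arms in capitals and holds no T-loop motif on either strand.
MIR4638 hairpin: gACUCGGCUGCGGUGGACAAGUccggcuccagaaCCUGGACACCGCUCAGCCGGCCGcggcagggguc
A second TRIM41 region, as joined over the samples 823 bases from the same tRNA gene, had a fold of 8.80 and 10.6 in the knockdown samples, against 34.0 and 15.4 in the control samples. Its peak in knockdown sample 2 starts at base 181223970, farther than 1 kb from the gene, which ends at base 181222467. The region in the lncRNA LINC01962, over the 5′ part of TRT-TGT6-1, had the same start and end in all 4 samples and a fold of 151 and 57.1 in the knockdown samples, against 125 and 59.6 in the control samples. The groups overlapped there.

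The chr16 p13 cluster, with 14 tRNA genes and 15 regions, had 5 regions within 1 kb of a tRNA gene, all listed in all 4 samples and all with a median fold of at least 1071. The region chr16:3188212-3188479 in the lncRNA AJ003147.2, 47 bases downstream of TRP-TGG3-5, had a fold of 44800 and 36463 in the knockdown samples, against 23866 and 29536 in the control samples. The region in AJ003147.1, 115 bases from TRP-TGG3-4, had 28070 and 20861 in the knockdown samples, against 12719 and 18260 in the control samples. A region of only 9 bases in AJ003147.2, 164 bases from the lysine gene TRK-CTT4-1, had 16960 and 7989 in the knockdown samples, against 4693 and 7062 in the control samples. In these 3 regions, and in that of AC108134.2 over TRK-CTT3-1 (1166 and 1122 in the knockdown samples, against 973 and 1019 in the control samples), both knockdown folds were above both control folds. The fifth, in AJ003147.2 beside TRP-AGG2-8, had 280 and 5590 in the knockdown samples, against 2533 and 4318 in the control samples. There knockdown sample 1 stood far below the other samples. Over all 1772 regions listed in all 4 samples, both knockdown folds were above both control folds in 12.5%. The other 10 regions of the cluster, in zinc finger genes such as ZNF205, ZNF213 and ZNF263 and in ZNF213-AS1, had a median fold of 6.54, and 0 of them were listed in all 4 samples.

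The chr1 q23 cluster, with 31 tRNA genes and 8 regions, had 5 regions within 1 kb of a tRNA gene, of which 4 overlapped one. The region chr1:161523664-161524013, listed under a lncRNA transcript of FCGR2A, a gene for an Fc receptor of immune cells, covers the glycine gene TRG-GCC2-1. Its fold was 16333 and 15158 in the knockdown samples, against 12322 and 14269 in the control samples, with a highest to lowest ratio of 1.33 over the 4 samples. The region in AL592295.4 over the glutamate gene TRE-TTC4-2 had 337 and 294 in the knockdown samples, against 117 and 148 in the control samples. The region in AL831711.1 over the aspartate gene TRD-GTC2-1 had 28.9 and 8.07 in the knockdown samples, against 62.3 and 11.9 in the control samples, and the groups overlapped.

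Outside the rule for named regions, and chosen after its values were seen, the region chr1:161470470-161470523 in AL592295.3, over the aspartate gene TRD-GTC2-5, differed most between samples. It was listed with a fold of 5.08 and a width of 19 bases in knockdown sample 1 and was not listed in knockdown sample 2, against 52297 and 54574 with a width of 54 bases in the control samples. How reads that match several copies of a tRNA were placed is not given, so these values are uncertain for a single gene. The third region at a gene of this TRD-GTC2 group, chr17:8222293-8223061 in LINC00324, overlaps TRD-GTC2-11, which ends at base 8222309. Its folds were 12560 and 7707 in the knockdown samples, against 26999 and 7019 in the control samples, and the groups overlapped. The peaks behind the values of knockdown sample 1 and control sample 1 start at base 8222293, inside the gene. Those behind the values of knockdown sample 2 and control sample 2 start past the gene, at bases 8222664 and 8222670. These values are therefore not all at the gene. Like the TRD-GTC2-5 region, the other regions beside tRNA genes that were not in all 4 lists were missing from only 1 list. The region in HMGN4, a gene for a nucleosome-binding protein, 279 bases from TRV-CAC1-6, was absent from the list of knockdown sample 1 and had 13096 in knockdown sample 2, against 14896 and 14786 in the control samples. The region in LINC00324 39 bases from the glycine gene TRG-TCC3-1 had 10401 and 16153 in the knockdown samples, against 19448 in control sample 2, and was absent from the list of control sample 1.

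The chr17 p13 cluster, with 18 tRNA genes and 12 regions, had 6 regions within 1 kb of a tRNA gene, of which 5 were in all 4 lists. In all 5 the folds of the groups overlapped, as in 933 of all 1772 regions listed in all 4 samples. The region in ALOXE3, a gene for an epidermal lipoxygenase, was 18 bases long with the same bounds in all 4 samples, 108 bases from the lysine gene TRK-TTT3-5. Its fold was 1927 and 2011 in the knockdown samples, against 1654 and 2143 in the control samples. It lies whole in a RefSeq start window, chr17:8119030-8119047 on the plus strand, and is shown because its bounds did not move between lists: cgctgcttccaaatctgt. The region in LINC00324 over the tryptophan gene TRW-CCA1-1 had 498 and 82.7 in the knockdown samples, against 235 and 277 in the control samples. The mRNA regions in HES7, a repressor of the segmentation clock, over TRR-TCT2-1 and in CTC1, a telomere maintenance gene, over TRT-AGT1-2 had median folds of 24.0 and 25.7. The sixth region in all 4 lists, in TMEM107, a gene of the ciliary transition zone, lay 12610 bases from a tRNA gene but overlapped SNORD118, which encodes the U8 small nucleolar RNA. Its fold was 15.1 and 16.8 in the knockdown samples, against 52.5 and 28.6 in the control samples.

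The chr6 p22 cluster holds the most tRNA genes, 135, but only 6 of them lay within 1 kb of any of its 19 regions. Of its 5 regions beside tRNA genes, 4 were in all 4 lists. The region chr6:28589229-28589604 in AL049543.1, over the glutamine gene TRQ-TTG2-1, had a fold of 547 and 749 in the knockdown samples, against 2100 and 1388 in the control samples. The region in AL121936.1, 92 bases from the alanine gene TRA-AGC11-1, had 81.4 and 159 in the knockdown samples, against 547 and 349 in the control samples. LINC00240 beside TRI-TAT2-2 had 16.2 and 8.07 in the knockdown samples, against 30.9 and 26.8 in the control samples. Both knockdown folds were the lower in these 3 regions, as in 34.9% of all 1772 regions listed in all 4 samples. In LINC00533, 6 bases from the threonine gene TRT-CGT3-1, knockdown sample 1 stood apart with 347, while knockdown sample 2 had 13, against 25.2 and 36.9 in the control samples. The other 14 regions, in butyrophilin genes, zinc finger genes and others, had a median fold of 5.37, and 0 were in all 4 lists.

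The chr14 q11 cluster, with 14 tRNA genes, had 4 regions. The region in RNASE4, a secreted ribonuclease gene that shares its start with angiogenin, beside TRP-TGG3-2, had a fold of 217 and 252 in the knockdown samples, against 234 and 295 in the control samples. The region in RNASE11, 137 bases from the proline gene TRP-AGG2-5, had 34.4 and 24.2 in the knockdown samples, against 17.8 and 21.8 in the control samples. The letters of TRP-TGG3-2 and TRP-TGG3-5 are the same, yet the regions beside them differed in median fold, 243 in RNASE4 and 32999 in AJ003147.2.

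The chr1 q21 cluster, the longest at 4.8 Mb, had 35 regions and 22 tRNA genes but only 2 regions beside tRNA genes. The region in AC245014.1, 11 bases from the asparagine gene TRN-GTT2-7, had the same bounds in all 4 samples and a fold of 1972 and 194 in the knockdown samples, against 131 and 164 in the control samples. Knockdown sample 1 again stood apart there. The region in AC245100.1, 116 bases from TRQ-CTG7-1, had 43.3 and 23.4 in the knockdown samples, against 47.6 and 32.1 in the control samples. The other 5 regions in all 4 lists lay at least 32240 bases from a tRNA gene, in FAM72D, NOTCH2NL, NBPF14, NBPF9 and NBPF19, members of families of near-identical copies that arose by segmental duplication. The NOTCH2NL region, at the start of NOTCH2NLA, had 42.1 and 51.2 in the knockdown samples, against 32.5 and 8.99 in the control samples. The regions in NBPF14 and NBPF19 lie at the starts of NOTCH2NLB and NOTCH2NLC, and the RefSeq start windows of 300 bases of these 3 genes share unbroken runs of 228 to 268 identical bases, so the folds of the 3 regions are uncertain as separate values. A region in RNF115 that reaches into the start window of POLR3C, a gene for a subunit of RNA polymerase III, was listed in 3 samples with a median fold of 10.2.

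**Figure D3:**
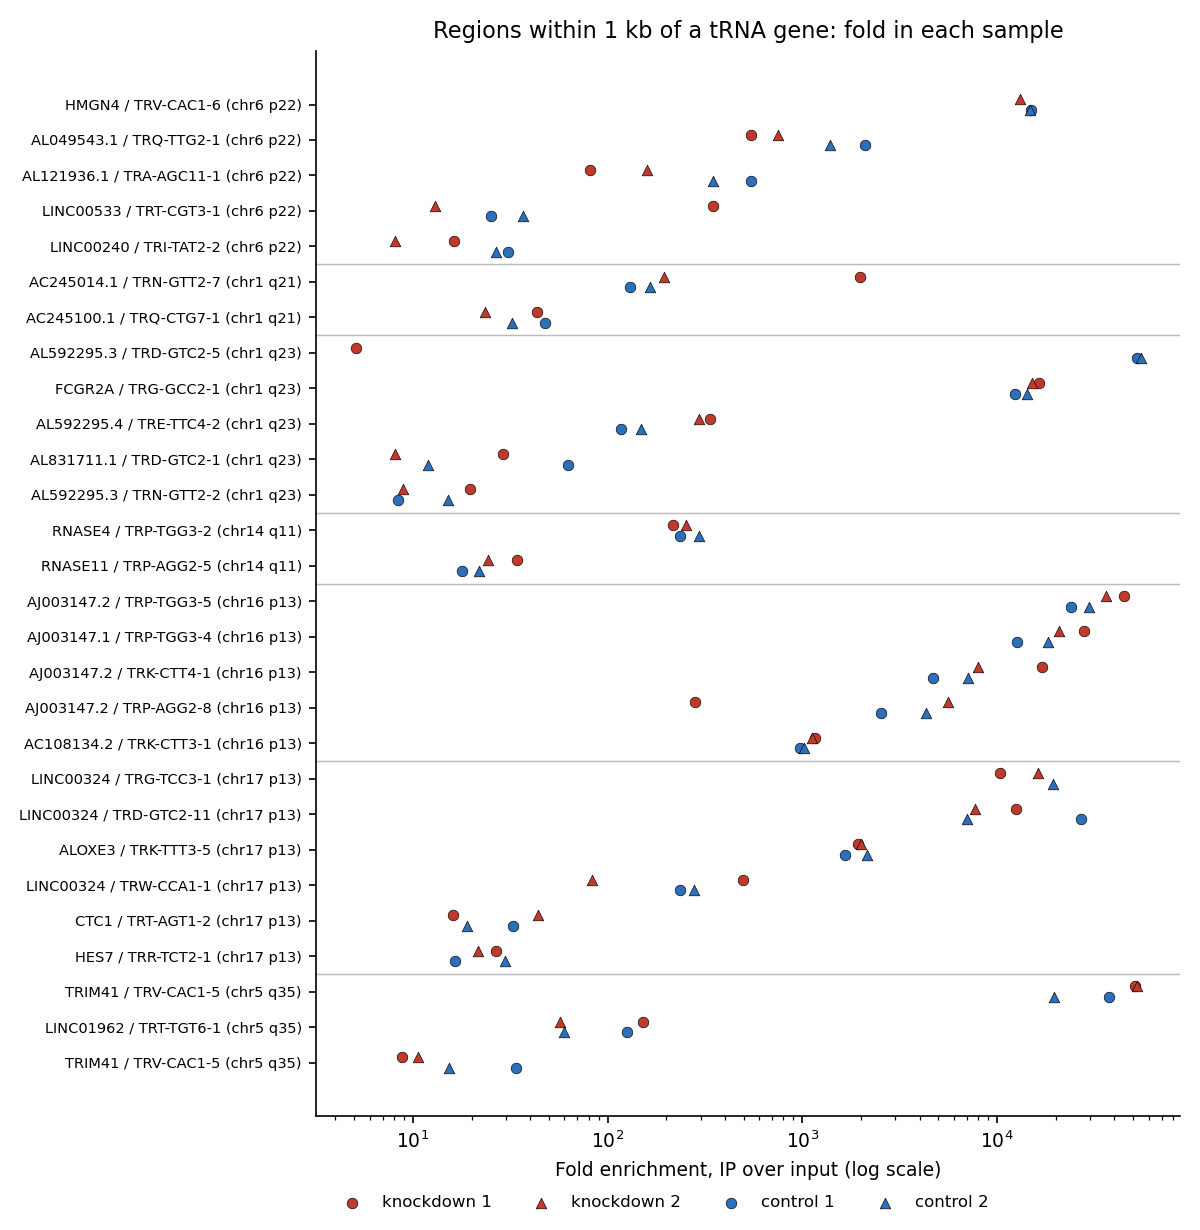
Each row is 1 of the 28 cluster regions within 1 kb of a tRNA gene, named by host and nearest tRNA gene and grouped by cluster. The x axis is the fold enrichment of IP over input on a log scale, with knockdown samples in red above control samples in blue, circles for replicate 1 and triangles for replicate 2. A missing symbol means that the region is not in that sample's list. The row of AL592295.3 beside TRD-GTC2-5 has a knockdown value of 5.08 and control values of 52297 and 54574, which are uncertain because the placing of reads that match several tRNA copies is not given. In the 25 rows with 4 symbols the highest and lowest fold differ by a median of 2.73 times.

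The nearest tRNA genes of the 28 regions covered many amino acids. Proline genes came first with 5 regions, then aspartate, lysine, threonine and valine genes with 3 each, glycine, asparagine and glutamine genes with 2 each, and 1 each for alanine, glutamate, isoleucine, arginine and tryptophan. Only the nearest gene of each region was counted. The genes per amino acid in the clusters were not, so this order shows no preference. Of the 251 tRNA genes in the clusters 42 lay within 1 kb of a region and 14 were overlapped, so most had no listed m1A region near them. Each peak is assigned to an mRNA or lncRNA transcript, so the lists say nothing of tRNA genes outside such transcripts.

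Peak bounds followed host transcripts as well. All 108 cluster peaks in the lncRNA lists lay inside the bounds of their host transcript, as did all 8011 peaks of these lists. Of the 108, 58 (53.7%) had an edge exactly at the first or last base of the transcript, much as over all lncRNA peaks (54.1%). The 28 regions beside tRNA genes spanned 9 to 1523 bases with a median of 148, and 8 of them spanned under 100 bases. The 73 farther regions had a median span of 272 bases. The median width of the cluster peaks was 237 and 268 bases in the knockdown samples and 270 and 256 bases in the control samples. Start and end were identical in all 4 samples for 5 of the regions beside tRNA genes and for 4 of the farther ones.

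The number of cluster peaks did not separate the groups. The lists held 65 and 53 cluster peaks in the knockdown samples, against 64 and 49 in the control samples, a mean of 59 ± 8.49 against 56.5 ± 10.6 (SD, n = 2 each) and a ratio of 1.04. A two-sided exact permutation test gave p = 0.667, where the smallest p that 2 samples against 2 can give is 0.333. Cluster peaks in the mRNA lists numbered 39 and 28 in the knockdown samples, against 36 and 20 in the control samples (exact permutation p = 0.667). As a share of their own mRNA list these were 0.673% and 0.760% in the knockdown samples, against 0.537% and 0.463% in the control samples, and both knockdown shares were the higher. Those in the lncRNA lists numbered 26 and 25 in the knockdown samples, against 28 and 29 in the control samples, with a ratio of 0.895 (exact permutation p = 0.333, the smallest possible). As a share of their own lncRNA list these were 1.11% and 1.81% in the knockdown samples, against 1.08% and 1.71% in the control samples, and the groups overlapped. The whole lists held 8136 and 5070 peaks in the knockdown samples, against 9289 and 6015 in the control samples, and as a share of the list the ratio of the groups was 1.23 (exact permutation p = 0.667). The ratio of peak numbers turned below 1, to 0.938, without knockdown sample 1 and, to 0.922, without control sample 2.

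**Figure D4:**
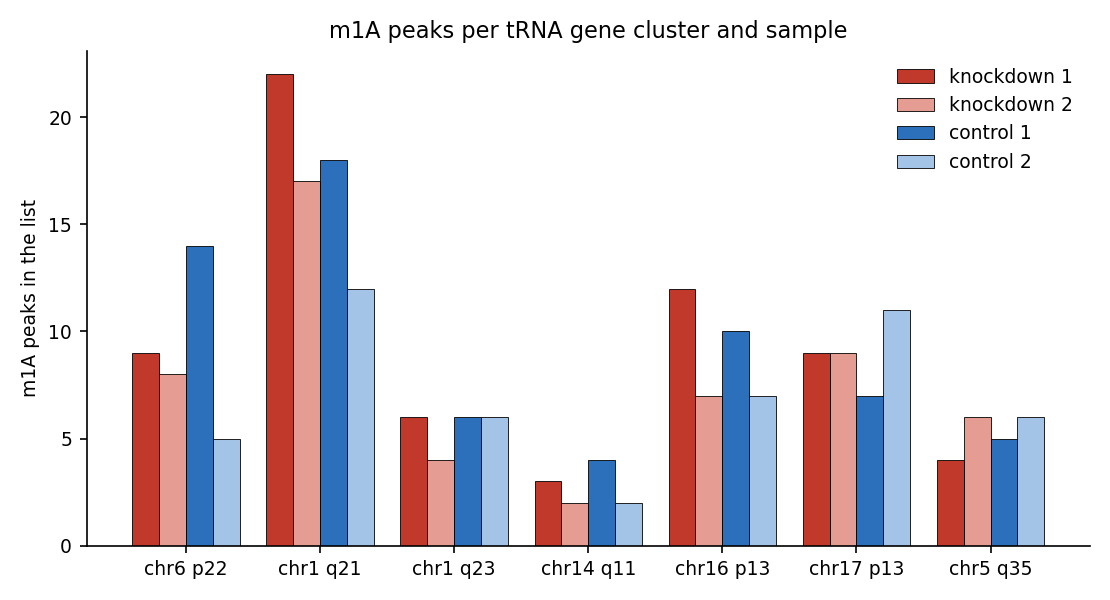
Bars give the number of m1A peaks per tRNA gene cluster in each sample's lists, mRNA and lncRNA together, in red shades for the knockdown samples and blue shades for the control samples. The chr1 q21 cluster holds the most, 22 and 17 in the knockdown samples against 18 and 12 in the control samples, and in no cluster do the groups stand apart.

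Few cluster regions were listed by group, and their number was not tested against that over all regions. Their folds ran from 2.73 to 18.8, beside a median fold of 5.79 over all regions. Both knockdown lists and neither control list held 3 of the 101 cluster regions, where over all regions this pattern occurred in 2.19%. These lay in ZNF205, with a fold of 7.23 and 9.45, in the pseudogene ABHD17AP1, with 9.01 and 6.88, and in TRIM7, an E3 ubiquitin ligase gene, with 2.73 and 6.69. Both control lists and neither knockdown list held 2 of the 101, where over all regions this pattern occurred in 5.86%. They lay in a lncRNA transcript of POLR3GL, which encodes a subunit of RNA polymerase III, with a fold of 18.8 and 6.0, and in TRIM41, with 4.99 and 5.25. None of the 5 lay within 1 kb of a tRNA gene, which follows from the listing of all 28 regions there in 3 or 4 samples.

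Among the 31 regions listed in all 4 samples, both knockdown folds were above both control folds in 13 and below them in 5, and in 13 the groups overlapped. Those above include 4 regions farther from tRNA genes, in NOTCH2NL, NBPF14, NBPF9 and NBPF19. The folds in NOTCH2NL, NBPF14 and NBPF19 are uncertain as separate values, so they may not count as separate regions. Over all 1772 regions listed in all 4 samples the knockdown folds were above in 12.5% and below in 34.9%. Of the 25 such regions beside tRNA genes, 9 were above, 4 below and 12 overlapped, with 4 of the 9 in chr16 p13 and 3 of the 4 in chr6 p22. Of the 30 such regions beside tRNA genes elsewhere in the genome, 3 were above, 11 below and 16 overlapped, and the difference from the clusters was not tested. The chr16 p13 regions above include neighbours in the same lncRNA, AJ003147.2, and regions beside TRP-TGG3-4 and TRP-TGG3-5. They too may not count as separate regions. The region below in TRIM41 had its knockdown sample 2 peak farther than 1 kb from the tRNA gene. Highest and lowest fold of a region differed by 1.20 to 26.7 times over the 4 samples, with a median of 2.73 in the 25 regions. Folds were not tested between groups, because each list was made separately and holds no read counts per peak.

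Input RNA counts of the host genes gave no call. In bulk RNA, fewer expressing cells and less RNA per cell cannot be told apart. Of 44 host genes of mRNA peaks 43 were in the count table and 41 were tested, and 0 passed an adjusted p of 0.05 in edgeR's quasi-likelihood test, where 0.0374% of the 13362 tested genes passed. At an unadjusted p under 0.05 there were 2 hosts, against 3.3% of all genes. Both were lower in knockdown inputs, as were 1.58% of all genes, and 0 were higher, against 1.72% of all genes. DESeq2 called 1 host, against 0.18% of all genes. This was SRGAP2B, a human-specific partial copy of SRGAP2, whose counts are uncertain because of its near-identical copies. It had 19.4 and 16.4 CPM in knockdown inputs, against 31.6 and 26 CPM in control inputs, a log2 fold change of -0.68 (SE 0.14) with an edgeR adjusted p of 0.777 and a DESeq2 adjusted p of 0.0248. PIAS3, a SUMO ligase gene, had 22.1 and 23.1 CPM in knockdown inputs, against 28.6 and 27.2 CPM in control inputs (edgeR adjusted p = 1.00). The other named hosts that were tested also had an edgeR adjusted p of 1.00, while RNASE4 was not tested. GPR89B, one of a pair of near-identical genes for a Golgi pH regulator, had a mean of 21.3 ± 1.01 CPM in knockdown inputs and 25.8 ± 7.11 CPM in control inputs (SD, n = 2 each). In the other direction ABT1, a gene for an activator of basal transcription, had 26.9 ± 0.318 CPM in knockdown inputs and 23.5 ± 3.49 CPM in control inputs, PDE4DIP 62.6 ± 5.39 and 57.2 ± 0.845 CPM, and ZSCAN31 36.0 ± 0.382 and 33.5 ± 0.0973 CPM, in the same order of groups.

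Some hosts of strong regions were barely seen in the input counts. RNASE4 had 0.0516 and 0 CPM in knockdown inputs, against 0 and 0.118 CPM in control inputs, while its region was in all 4 lists with a median fold of 243. ALOXE3 had 0.567 and 0.676 CPM in knockdown inputs, against 0.944 and 0.874 CPM in control inputs. The AJ003147.1 transcript had 0 and 1 reads in knockdown inputs, against 0 and 1 reads in control inputs, beside a median fold of 19560. Of the 6 measured mRNA hosts of regions beside tRNA genes, 3 had a mean under 1 CPM, as had 1 of the 37 hosts of farther regions that had no region beside a tRNA gene and 26.4% of all 16547 genes in the table. For lncRNA hosts these numbers were 5 of 12 and 4 of 14, and the share over all lncRNA transcripts was not computed. Other strong regions lay in well-measured hosts. TRIM41 had 45.3 and 41.7 CPM in knockdown inputs, against 40.9 and 40.9 CPM in control inputs, and HMGN4 41.5 and 45.5 CPM in knockdown inputs, against 40.7 and 42.7 CPM in control inputs. Counts per gene do not give the input reads at the peak itself, so a large fold cannot be divided into many IP reads and few input reads.

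**Figure D5:**
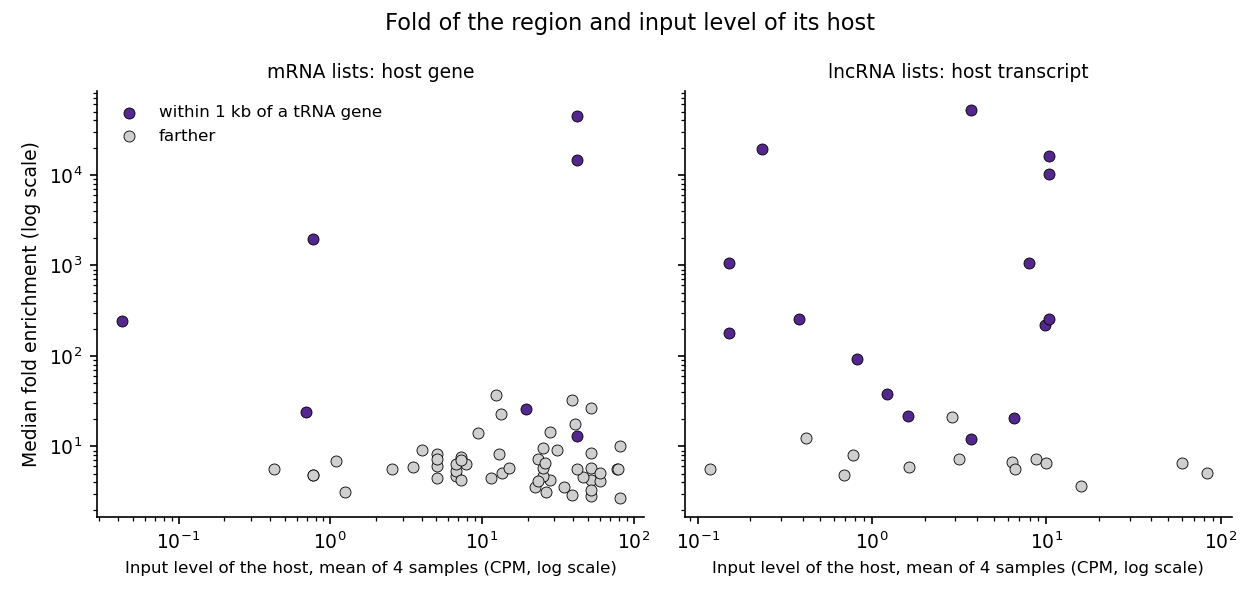
Each point is a cluster region whose host was in the count table, for hosts of mRNA lists on the left and of lncRNA lists on the right. The x axis is the mean input level of the host in CPM and the y axis the median fold enrichment, both on log scales. Regions of other hosts are not shown, such as those in AJ003147.2, with a median fold of up to 32999, and in FCGR2A. A region in both kinds of list appears in both panels. For regions within 1 kb of a tRNA gene (purple) host levels run from 0.0424 to 42.6 CPM on the left and from 0.151 to 10.3 CPM on the right, and for farther regions (grey) from 0.424 to 80.7 CPM and from 0.117 to 83.7 CPM. Farther regions (grey) reach a fold of at most 37.3.

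The lncRNA hosts gave no call either. Of 36 host transcripts 26 were in the count table and 11 were tested, and 0 passed an adjusted p of 0.05 in edgeR, where 0.0219% of the 22803 tested transcripts passed. At an unadjusted p under 0.05 there were 0 hosts, against 4.55% of all transcripts, of which 2.35% were higher and 2.19% lower in knockdown inputs. DESeq2 called 0 hosts, against 0.0175% of all transcripts. Among the hosts of at least 5 CPM the smallest p towards lower values in knockdown inputs was that of a TRIM41 transcript, with 84.4 and 67.6 CPM in knockdown inputs, against 99.7 and 83.0 CPM in control inputs. AL831711.1 had 1.87 and 7.73 CPM in knockdown inputs, against 4.84 and 11.6 CPM in control inputs. AL592295.4 had 6.06 and 12.1 CPM in knockdown inputs, against 17.5 and 3.57 CPM in control inputs. The groups overlapped in all 3 transcripts. Towards higher values AC108134.2 had 7.0 and 11.6 CPM in knockdown inputs, against 9.07 and 4.02 CPM in control inputs. LINC00869 had 11.2 and 3.87 CPM in knockdown inputs, against 4.84 and 5.35 CPM in control inputs. LINC01138 had 7.0 and 8.21 CPM in knockdown inputs, against 4.84 and 6.25 CPM in control inputs, and was the one of the 6 named here whose knockdown values were both above the control values. The host of the TRD-GTC2-5 region, AL592295.3, had 3 and 15 reads in knockdown inputs, against 2 and 11 reads in control inputs, so its level did not order the samples as its fold did.

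Genes that make and process tRNA gave no call. The list held 43 genes for RNA polymerase III subunits, its TFIIIC and TFIIIB factors, RNase P, splicing and export, of which 42 were in the table and 40 were tested. None passed an adjusted p of 0.05 in edgeR or in DESeq2, and 0 had an unadjusted p under 0.05. Of the 40, 16 had a positive and 24 a negative log2 fold change, with a median of -0.02 and a range of -0.19 to 0.14, beside a median of -0.000557 over all tested genes. Genes among those of smallest p in each direction are given here, all with an edgeR adjusted p of 1.00. SSB, the La protein that binds the 3′ end of new RNA polymerase III transcripts, had 146 and 129 CPM in knockdown inputs, against 164 and 145 CPM in control inputs. XPOT, the tRNA exporter, had 208 and 177 CPM in knockdown inputs, against 238 and 196 CPM in control inputs. The groups overlapped in both genes. GTF3A, the factor for 5S rRNA genes, had 58.3 and 47.3 CPM in knockdown inputs, against 61 and 57.7 CPM in control inputs. On the other side RPP30, a subunit of RNase P, had 88.6 and 88 CPM in knockdown inputs, against 80 and 83.7 CPM in control inputs. Both knockdown values were the higher there. LARP7, which binds the 3′ end of the RNA polymerase III transcript 7SK, had 36.8 and 38.4 CPM in knockdown inputs, against 36.9 and 31.4 CPM in control inputs, and the groups overlapped.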

How the data were processed

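The members and the gene lists were chosen with earlier results of these data known. Per the file headers, the authors deposited 1 peak list per sample and RNA class (8 lists), with a linear ratio of IP over input per peak (fold enrichment), a score of 10 times the negative log10 p, of at least 50 in all peaks, and a peak width. No source used here gives the peak caller's settings. The raw read counts of the 4 inputs were also deposited, and 8 normalized columns beside them were left aside. Per the submitters' processing notes, HISAT2 2.0.4, HTSeq 0.9.1, STAR and edgeR were used with hg38, in roles not given, and the labels' protocols name directional library kits.

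Duplicate rows of a peak were merged, and peaks of any sample overlapping by at least 1 base formed a region. Distances are differences of coordinates to RefSeq tRNA genes on GRCh38.p14, whose chromosomes have the coordinates of hg38, and the 1 kb limit was chosen after seeing the data. edgeR 4.0.16 in R 4.3.3 tested the counts (low counts filtered at 10 by filterByExpr, TMM, quasi-likelihood test, no block, Benjamini-Hochberg adjustment, threshold 0.05), over all 16547 mRNA genes (13362 tested) and 48055 lncRNA transcripts (22803 tested) separately, after testing on simulated data. CPM uses TMM-scaled library sizes and is not comparable between the 2 tables. DESeq2 1.42.0 was an alternative. Peak numbers were compared by an exact permutation test. Named regions were, per cluster, the 3 of highest median fold among those in all 4 lists, and regions in both lists of 1 group only; other regions are given after their values were seen. Named hosts were those of such regions, those past the threshold and, from 5 CPM, the 3 of smallest p in each direction, a rule also used for the tRNA synthesis list, of which 1 gene is not reported here.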

Additional observations from a re-analysis of the deposited data

How the results depend on the processing

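Of 100 recomputed values 71 kept their direction and their side of the threshold or, for counts, stayed within 1.5 times. Leaving out each sample moved the knockdown over control ratio of peak numbers over 0.922 to 1.20, that of mRNA-list peaks over 0.931 to 1.68, that of lncRNA-list peaks over 0.877 to 0.912 and that of the share of the list over 1.06 to 1.39, so the first 2 have no fixed direction. Counts of regions in every list left were 32 to 35, with 25 to 26 near tRNA genes and 6 to 9 farther away. Regions in the knockdown lists only numbered 4 to 22 and regions in the control lists only 5 to 15, where fewer lists ease the rule.

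The 31 regions in all 4 lists were 13 with the mRNA lists alone (7 near tRNA genes) and 18 with the lncRNA lists alone (0 farther away), which hold fewer regions. Knockdown-only regions were 1 with the lncRNA lists alone. Control-only regions were 5 at a 50% overlap of both peaks, 1 at a score of at least 100 and 0 with the mRNA lists alone. The 11 regions that overlap a tRNA gene were 21 within 100 and 28 within 1000 bases. The median over samples of the median cluster fold, 19.0, was 29.5 at a score of at least 100 and 93.4 in regions of all 4 lists, whose median width was 237 bases, against 262 over all cluster peaks.

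Host genes called numbered 1 with DESeq2 and 0 to 1 when 1 input was left out, SRGAP2B each time. Host lncRNA transcripts called numbered 1 with no filter and 0 to 1 when 1 input was left out, each time NUDT4P2, whose 89 reads all came from control input 2. The tRNA synthesis list gave 0 under every alternative run. With the replicate number as a block the ratio of peak numbers was 1.05, that of mRNA-list peaks 1.23, that of lncRNA-list peaks 0.895 and that of the share 1.22, and 0 hosts were called. Nothing in the labels pairs the numbers, and the correlation of same-numbered deviations was 0.0475 for mRNA and 0.0220 for lncRNA inputs. With 2 samples a group, the exact permutation test of peak numbers could not reach the threshold.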
